A study of Mus musculus with 27 samples.

Results

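The genes described here are the 34 that carry out glycolysis, convert its pyruvate to lactate, move lactate across the cell membrane and decide how much pyruvate enters the mitochondria, together with those that set the level of fructose 2,6-bisphosphate and that make or break glycogen. They were chosen by name, from their enzyme steps, and were read as the rows with those gene names in the table of the series. All 34 were measured among its 19615 targets, and 29 lay above background. Background was the 95th percentile of 1125 olfactory, vomeronasal, taste and trace amine receptor genes, 196.5 on the scale used here. Aldoc, Pgam2, Pklr, Pdk4 and Slc16a7 did not reach it.

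The study examined liver metastases of MC38, a mouse colon carcinoma line, and asked how Cmtm6, which encodes a membrane protein known for stabilising PD-L1, affects them. C57BL/6 mice aged 2 months received MC38 cells through the portal vein. The cells carried a lentiviral nontargeting shRNA in the control group and a CMTM6 shRNA in the knockdown group. Tumour sections were stained for desmin, which marks stromal fibroblasts, and for pan-cytokeratin, and RNA was read with the GeoMx whole transcriptome probes from the part of each region left after the desmin-positive area was set aside. There were 14 control regions and 13 knockdown-labelled regions. Each group came from 3 mice by the study's methods, but the labels do not tie a region to a mouse, so regions of 1 animal entered as if they were separate. All p-values over regions are therefore too small. Which of the mouse shRNAs the injected cells carried, and whether they were a clone, is not stated in the sources available. The host cells within a region carried no shRNA.

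The deposited values of each label group had been set to their own upper quartile, 788 in control and 539 in knockdown-labelled regions, a ratio of 1.46. Every region was therefore scaled to the same median over all targets, 236.9, before any comparison, and readings below are on this common scale. Relative depth, taken from the step between neighbouring readings, ran from 4223031 to 26328208 steps per region and was lower in the knockdown-labelled regions (12293959 ± 4509360, SD, n = 13) than in control (17598705 ± 5035582, SD, n = 14). Cmtm6 itself read 510.8 to 700.7 in control (median 641.4) and 416.9 to 722.3 in knockdown-labelled regions (median 607.5), a difference of −0.06 ± 0.07 (log2, SE) with a limma adjusted p of 0.631. The targeted mRNA thus did not separate the labels, and the second group is called knockdown-labelled throughout. Of 11 epithelial tumour markers only Krt8 lay above background. Hepatocyte markers passed the test in the higher direction in the knockdown-labelled regions in 9 of 24 cases and T or NK cell markers in 7 of 18. The region with the lowest relative depth was knockdown-labelled region 13.

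Glycolysis breaks glucose down to pyruvate in the cytosol. Hexokinases trap glucose as its phosphate, phosphofructokinase commits the sugar to breakdown, aldolase splits it, and the enzymes that follow recover ATP and NADH. Lactate dehydrogenase regenerates the NAD that the pathway consumes, and monocarboxylate transporters carry the lactate out. Pyruvate dehydrogenase kinases phosphorylate and switch off the enzyme complex that would send pyruvate into the mitochondria. Many tumours use this route heavily even with oxygen present. Several of the enzymes exist as isoforms made by separate genes, and the isoforms Hk2, Aldoa, Eno1, Ldha, Pdk1 and Slc16a3 are textbook targets of the hypoxia-inducible factors.

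Across the steps, 10 of the 34 genes were lower in the knockdown-labelled regions and 2 were higher, while 22 did not pass (limma adjusted p under 0.05 over all 19615 targets). Among all targets 2.58% were called lower and 1.31% higher, so 29.4% of the genes here were called lower against 2.58% of the whole panel. Among the 10799 targets above background the shares were 3.08% and 1.91%. The lower genes were Pfkl, Aldoa, Tpi1, Gapdh, Pgk1, Eno1, Ldha, Pdk1, Slc16a1 and Slc16a3, and they fell in 9 of the 15 steps. Hk3 and Pygl were higher. The median difference of the 34 genes was −0.20 (log2) and that of all targets −0.04, and 27 of the 34 differences were below 0, or 79.4%, against 66.0% of all targets. Regions of 1 mouse were counted separately, which makes each of these p-values and those below too small. In each of the 12 genes the ranges of the groups overlapped, as they did for every target of the panel. RNA of a whole region was read, so fewer cells of a type and less RNA per cell cannot be told apart. Gapdh, Pgk1, Ldha, Eno1, Aldoa, Tpi1 and Pgam1 have processed copies elsewhere in the mouse genome that their probes may also meet.

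**Figure D1:**
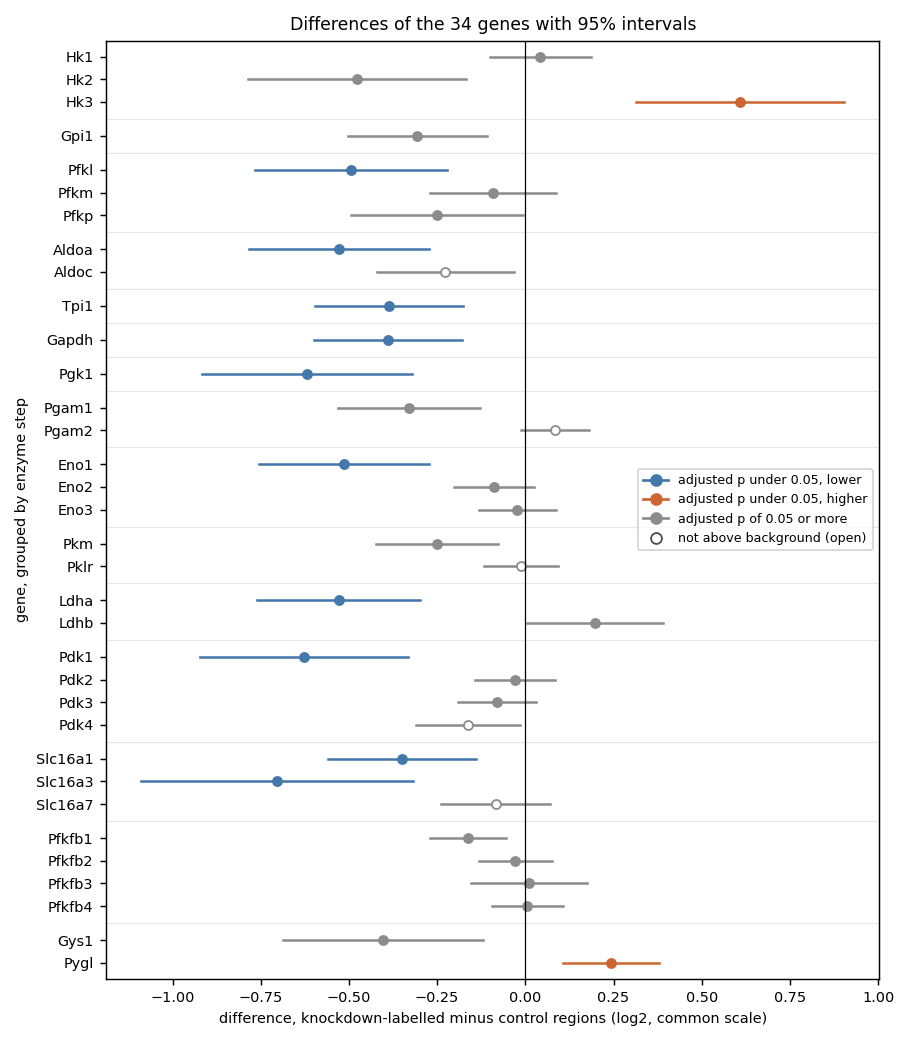
The horizontal axis gives the difference between knockdown-labelled and control regions in log2 units on the common scale, and the vertical axis lists the 34 genes by step. Points are limma estimates with 95% intervals, blue for the 10 lower genes, orange for Hk3 and Pygl and grey for the 22 that did not pass, with open circles for the 5 genes not above background.

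The promoters of Ldha, Ldhb, Pgk1, Pdk1 and Slc16a3 are shown. Ldha, Pgk1, Pdk1 and Slc16a3 were lower, while Ldhb, which makes the other subunit of the same enzyme as Ldha, did not pass. They are a selection, and the windows of the other lower genes are not printed. Each window is a RefSeq sequence on GRCm38.p6, 250 bases before to 50 bases after the first listed start, 5′ to 3′ in the gene's direction. Capitals mark the letters ACGTG and GCGTG, the core of the hypoxia response element, on either strand (CACGT and CACGC when read on the printed strand), with CACGTG counted on both.
Ldha (chr7:46845554-46845853, plus strand): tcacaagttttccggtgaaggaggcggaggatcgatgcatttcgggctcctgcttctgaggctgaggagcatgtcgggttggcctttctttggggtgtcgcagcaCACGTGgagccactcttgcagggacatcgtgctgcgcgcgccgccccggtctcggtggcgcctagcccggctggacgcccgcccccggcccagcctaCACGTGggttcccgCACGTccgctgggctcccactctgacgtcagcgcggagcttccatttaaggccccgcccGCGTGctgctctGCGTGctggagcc
Ldhb (chr6:142507908-142508207, minus strand): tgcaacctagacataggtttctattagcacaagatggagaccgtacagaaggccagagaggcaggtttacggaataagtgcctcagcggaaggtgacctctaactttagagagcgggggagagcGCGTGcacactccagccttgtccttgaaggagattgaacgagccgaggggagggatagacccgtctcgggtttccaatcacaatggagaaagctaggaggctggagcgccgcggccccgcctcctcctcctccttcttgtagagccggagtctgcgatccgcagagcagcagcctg
Pgk1 (chrX:106186850-106187149, plus strand): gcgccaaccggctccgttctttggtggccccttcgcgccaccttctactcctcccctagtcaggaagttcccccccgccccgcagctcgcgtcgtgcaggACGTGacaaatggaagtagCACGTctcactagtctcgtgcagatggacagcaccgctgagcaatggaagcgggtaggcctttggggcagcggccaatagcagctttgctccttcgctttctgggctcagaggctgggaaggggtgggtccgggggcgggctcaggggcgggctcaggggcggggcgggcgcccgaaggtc
Pdk1 (chr2:71872974-71873273, plus strand): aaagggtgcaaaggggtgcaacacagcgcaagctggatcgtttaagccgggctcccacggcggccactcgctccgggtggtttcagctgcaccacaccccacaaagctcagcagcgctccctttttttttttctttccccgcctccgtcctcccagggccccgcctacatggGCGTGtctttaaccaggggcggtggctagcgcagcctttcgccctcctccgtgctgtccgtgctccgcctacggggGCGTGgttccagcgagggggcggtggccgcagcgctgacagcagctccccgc
Slc16a3 (chr11:120948817-120949116, plus strand): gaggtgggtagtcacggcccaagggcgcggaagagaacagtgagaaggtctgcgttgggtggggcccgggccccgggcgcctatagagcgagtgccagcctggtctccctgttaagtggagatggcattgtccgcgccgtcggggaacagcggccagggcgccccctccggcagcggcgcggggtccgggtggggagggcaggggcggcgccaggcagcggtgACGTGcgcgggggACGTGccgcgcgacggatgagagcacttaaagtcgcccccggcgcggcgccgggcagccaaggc
The first Ldha window held 7 matches, that of Ldhb 1, and those of Pgk1, Pdk1 and Slc16a3 held 2 each. Of the other isoforms, not printed, some followed the pair Ldha and Ldhb and others did not. Pdk3, which did not pass, held 4 against the 2 of Pdk1, and Pfkp, which did not pass, held 4 against 1 for Pfkl. The enolases did follow the pair, with 2 in Eno1, which was lower, 0 in Eno2 and 1 in Eno3. A window was found for 33 of the 34 genes, Slc16a7 being the exception. At least 1 match stood in 8 of the 10 lower genes and in 15 of the other 23, and in 43.8% of the first windows of all 27025 genes with one. Windows with 2 or more matches numbered 7 of 10, 9 of 23 and 20.8%. The first windows of Aldoa and Tpi1 had none. These letters are common, and a match is a description of the window, not a site of binding.

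Of the 3 hexokinases Hk3 alone passed the test, and it was higher. Hk1, the hexokinase found in most cells, read 866.6 to 1460 in control (median 995.4) and 861.9 to 1276 in knockdown-labelled regions (median 1051), a difference of 0.04 (log2, 95% interval −0.10 to 0.19; limma adjusted p = 0.782). Hk2, the isoform many tumours induce, read 513.6 to 1514 in control (median 774.0) and 446.8 to 829.4 in knockdown-labelled regions (median 584.8). Its difference was −0.48 ± 0.15 (SE) and missed the threshold over all targets (limma adjusted p = 0.0693), although 12 of 13 knockdown-labelled regions were under the control mean. Hk3, an isoform abundant in myeloid cells, read 217.8 to 490.9 in control (median 287.0) and 283.0 to 681.0 in knockdown-labelled regions (median 459.7). It rose by 0.61 ± 0.14 (log2, SE; limma adjusted p = 0.0200), a 1.52-fold difference, and 12 of 13 knockdown-labelled regions exceeded the control mean. Gpi1, which turns glucose 6-phosphate into fructose 6-phosphate, read 3964 to 8829 in control (median 5369.9) and 3252 to 5425 in knockdown-labelled regions (median 4792) and differed by −0.31 (limma adjusted p = 0.0647), with all 13 knockdown-labelled regions below the control mean.

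Macrophage markers are given beside Hk3 because it is a gene of myeloid cells. Of 18 macrophage or Kupffer cell markers 1, Csf1r, was higher and none lower, and 13 of the 18 were above background. By sign alone 13 differences were above 0 and 5 below. Cd163, which was not above background, differed by −0.21 (limma adjusted p = 0.0528). The summed reading of the list was 12477 to 24109 in control (median 16891) and 14875 to 38266 in knockdown-labelled regions (median 20284). Clec4f, which defines Kupffer cells, stayed near background in both groups, with medians of 135.5 and 135.9. With the mean of that list in the fit, a choice made after the data were seen, the Hk3 difference was 0.45 (limma adjusted p = 0.148). In that fit none of the genes described here passed, and of all targets 0.051% were called lower and 0.0867% higher. With the hepatocyte list the Hk3 difference was 0.48 (limma adjusted p = 0.112). Without control regions 6 and 7 it was 0.58 and just missed the threshold. With the mean of the hypoxia response genes described below it was 0.47 (limma adjusted p = 0.374). With relative depth in the fit it was 0.49 (limma adjusted p = 0.240). Loss of the Hk3 call was thus not particular to the macrophage list. The part that myeloid cells had in the Hk3 reading was not tested beyond these fits.

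At phosphofructokinase the liver-type subunit alone passed. Pfkl read 1416 to 3437 in control (median 1660) and 1017 to 1940 in knockdown-labelled regions (median 1339), a fall of 0.49 ± 0.13 (log2, SE; limma adjusted p = 0.0359). Control regions 3, 6, 7, 8, 10 and 11 lay above every knockdown-labelled region, and 9 of the 13 knockdown-labelled regions lay below every control region. The platelet-type subunit Pfkp read 658.7 to 1547 in control (median 790.4) and 598.8 to 1091 in knockdown-labelled regions (median 726.4), a difference of −0.25 (limma adjusted p = 0.226). Pfkm, the muscle-type subunit, read 496.0 to 817.7 in control (median 642.9) and 428.3 to 777.9 in knockdown-labelled regions (median 585.6), a difference of −0.09 (limma adjusted p = 0.584), and its highest reading was not in control region 6 or 7 but in control region 2. The 4 bifunctional enzymes that make and break fructose 2,6-bisphosphate, the activator of phosphofructokinase, did not pass, and their medians lay between 243.9 (Pfkfb1) and 477.7 (Pfkfb3) in both groups. Pfkfb2, Pfkfb3 and Pfkfb4 differed by −0.03, 0.01 and 0.01, with 95% intervals of −0.13 to 0.07, −0.15 to 0.17 and −0.10 to 0.11, so a fall of the size of Pfkl lay outside each interval. Pfkfb1, the liver isoform of these enzymes, differed by −0.16 (limma adjusted p = 0.0718). Tigar, which lowers fructose 2,6-bisphosphate, was among 18 further paralogs and relatives of these enzymes and was the sole one of them that passed, with a fall of 0.20 (limma adjusted p = 0.0346).

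From aldolase to glyceraldehyde phosphate dehydrogenase 3 of 4 genes were lower, and Aldoc was not. Aldoa, the aldolase of muscle and of most tumours, read 7461 to 18260 in control (median 8865) and 5600 to 9588 in knockdown-labelled regions (median 6856), and fell by 0.53 ± 0.13 (log2, SE; limma adjusted p = 0.0183). Tpi1, which interconverts the triose phosphates, read 5181 to 10666 in control (median 6984) and 3846 to 6944 in knockdown-labelled regions (median 5971) and fell by 0.39 ± 0.10 (limma adjusted p = 0.0302). Gapdh, the step that makes NADH, read 22702 to 52833 in control (median 36679.5) and 20637 to 33695 in knockdown-labelled regions (median 29412) and fell by 0.39 ± 0.10 as well (limma adjusted p = 0.0290). For each of these 3 genes the control mean was above all 13 knockdown-labelled regions. Aldoc, the brain aldolase, read 158.4 to 362.0 in control and 148.9 to 224.1 in knockdown-labelled regions and was not above background.

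Pgk1, which recovers the first ATP of the pathway, had the largest fall among the enzymes between glucose and lactate. It read 5123 to 15862 in control (median 6741) and 3912 to 6651 in knockdown-labelled regions (median 5185), a fall of 0.62 ± 0.15 (log2, SE; limma adjusted p = 0.0187) or 1.53-fold. Of the 14 control regions, 8 lay above every knockdown-labelled region, and the control mean exceeded all 13 of them. Pgam1, the phosphoglycerate mutase of most tissues, read 7007 to 13346 in control (median 8438) and 5725 to 9571 in knockdown-labelled regions (median 7071) and differed by −0.33 ± 0.10 and just missed the threshold (limma adjusted p = 0.0517). Eno1, the general enolase, read 16693 to 45028 in control (median 24543) and 13515 to 23847 in knockdown-labelled regions (median 18969) and fell by 0.51 ± 0.12 (limma adjusted p = 0.0147). The neuronal enolase Eno2 read 232.2 to 310.6 in control (median 270.6) and 218.9 to 311.6 in knockdown-labelled regions (median 252.6). The muscle enolase Eno3 read 452.5 to 594.7 in control (median 525.2) and 454.0 to 602.7 in knockdown-labelled regions (median 536.2). They differed by −0.09 and −0.02, with 95% intervals of −0.20 to 0.03 and −0.13 to 0.09, neither of which reached the fall of Eno1. Pkm, the pyruvate kinase of tumours, whose splice forms share 1 row of the table, read 15993 to 28519 in control (median 19972) and 13906 to 20139.9 in knockdown-labelled regions (median 17859) and differed by −0.25 ± 0.09 (limma adjusted p = 0.0825), again with all 13 knockdown-labelled regions below the control mean.

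**Figure D2:**
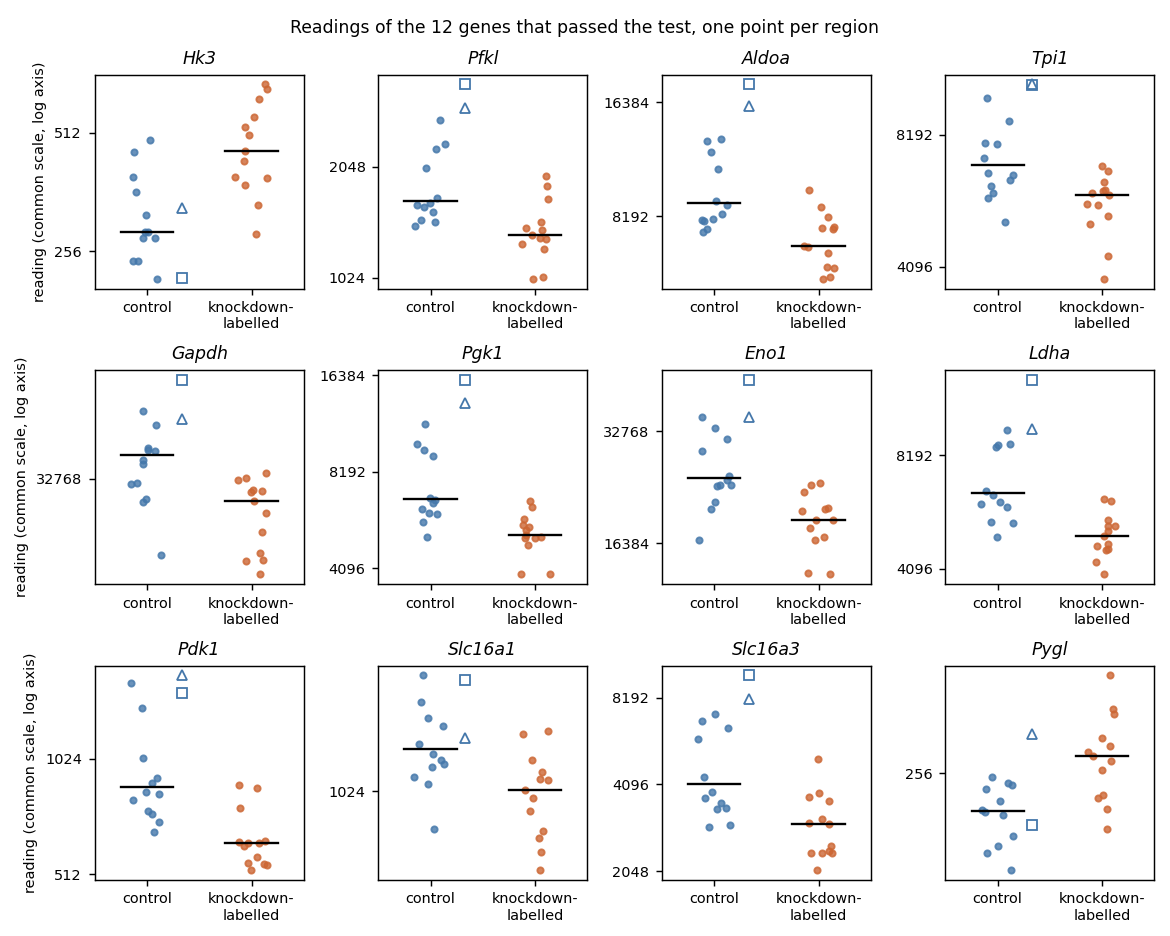
The vertical axis of each panel gives the reading on the common scale (log axis), with 1 point per region in the 14 control (blue) and 13 knockdown-labelled (orange) regions and a bar at the median, for the 12 genes that passed the test. Control region 6 (open square) and control region 7 (open triangle) sit at or near the top in most of the 10 lower genes, and the groups overlap in every panel.

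The lactate dehydrogenase subunits parted. Ldha, whose subunit is usually linked with pyruvate reduction, read 4959 to 12971 in control (median 6486) and 3954 to 6256 in knockdown-labelled regions (median 5009), and fell by 0.53 ± 0.11 (log2, SE; limma adjusted p = 0.0107), the smallest adjusted p among the 34 genes. Ldhb, the heart-type subunit, read 614.0 to 840.5 in control (median 703.9) and 567.0 to 1235 in knockdown-labelled regions (median 882.0), with a difference of 0.20 (95% interval 0.01 to 0.39; limma adjusted p = 0.226). The spread of Ldhb was wider in the knockdown-labelled regions (SD 0.35, log2, n = 13) than in control (SD 0.16, n = 14). Within the knockdown-labelled regions its reading went with a low hepatocyte list, with a correlation of −0.75 over 13 regions that share animals, sections and the scaling of each region. With the hepatocyte list in the fit Ldhb passed as higher, with a difference of 0.44 ± 0.09 (log2, SE; limma adjusted p = 0.0102).

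Among the 4 pyruvate dehydrogenase kinases Pdk1 alone passed. Pdk1, a kinase that switches off pyruvate dehydrogenase, read 659.8 to 1694 in control (median 864.7) and 525.3 to 875.7 in knockdown-labelled regions (median 616.1), and fell by 0.63 ± 0.14 (log2, SE; limma adjusted p = 0.0172). Here 7 control regions lay above every knockdown-labelled region and 10 of 13 knockdown-labelled regions lay below every control region. Pdk2 read 235.8 to 318.9 in control (median 262.6) and 220.8 to 299.8 in knockdown-labelled regions (median 269.6). Pdk3 read 743.3 to 946.3 in control (median 831.5) and 651.4 to 950.0 in knockdown-labelled regions (median 801.3). These 2 kinases differed by −0.03 and −0.08, with 95% intervals of −0.14 to 0.08 and −0.19 to 0.03. Pdk4, the kinase of fasting and fat use, stayed within background at 103.0 to 171.1 in control (median 121.4) and 79.7 to 132.6 in knockdown-labelled regions (median 109.9). None of the 11 genes of the pyruvate dehydrogenase complex, its phosphatases and the mitochondrial pyruvate carrier passed, the lowest limma adjusted p values among them being 0.0741 (Pdp1) and 0.186 (Pdhb). Mpc1 and Mpc2, the subunits of that carrier, differed by 0.05 and 0.09.

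The mRNAs of both lactate transporters read above background were lower. Slc16a3, which encodes MCT4, the transporter typical of glycolytic cells, read 2907 to 9779 in control (median 4093) and 2067 to 5018 in knockdown-labelled regions (median 2973). Its fall of 0.70 ± 0.19 (log2, SE; limma adjusted p = 0.0363) or 1.63-fold was the largest of the 34 genes, and the spread among control regions was also the largest (SD 0.59, log2, n = 14). Slc16a1, which encodes MCT1 and can carry lactate either way, read 856.9 to 1765 in control (median 1250) and 707.4 to 1360 in knockdown-labelled regions (median 1030), and fell by 0.35 ± 0.10 (limma adjusted p = 0.0479). Both calls depended on the fit. Slc16a1 passed in 5 of 15 alternative settings and in 6 of the 27 fits that left out 1 region. Slc16a3 passed in 8 and 17 of these. Bsg, their common chaperone at the membrane, differed by −0.21 (limma adjusted p = 0.112). Slc16a7, which encodes MCT2, stayed within background at 120.2 to 162.8 in control (median 137.2) and 77.9 to 157.9 in knockdown-labelled regions (median 135.6).

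The 2 glycogen genes had differences of opposite sign. Gys1, the synthase of muscle and most tissues, read 400.1 to 1016 in control (median 447.4) and 310.8 to 524.3 in knockdown-labelled regions (median 378.4) and differed by −0.40 ± 0.14 (limma adjusted p = 0.0928). Pygl, the liver-type phosphorylase that releases glucose from glycogen, read 187.0 to 290.5 in control (median 226.3) and 213.5 to 352.0 in knockdown-labelled regions (median 270.7), a rise of 0.24 ± 0.07 (limma adjusted p = 0.0352). With the hepatocyte list in the fit it was 0.17 (limma adjusted p = 0.221). Hepatocyte markers summed to 3528 to 10555 in control (median 4353) and 3724 to 19476 in knockdown-labelled regions (median 7898), with 13 of 24 above background, and their part in the Pygl reading was not tested beyond that fit. Pygl was the only one of the 12 genes whose sign depended on the scaling. On the values as deposited its difference was −0.26, where 98.0% of all targets were called lower.

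Ratios of isoforms within a region do not depend on how the region was scaled, so they give the comparison that the separate normalisation of the label groups cannot touch. A ratio of readings also reflects the probes, and its change between labels is therefore reported and not its level as an amount. Of 18 ratios set by enzyme step, 12 differed between the labels (66.7%; permutation test, 100000 resamples, two-sided, Benjamini-Hochberg over the 18). Most of the 12 hold a gene that passed the limma test by itself, so they largely restate those differences. The ratios were chosen with earlier results known, and no share over other gene pairs was computed beside the 66.7%. Since the genes within a step share their denominator, the ratios are not independent, and regions of 1 mouse again make the p-values too small.

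At lactate dehydrogenase the log2 ratio of Ldha to Ldhb was 3.33 ± 0.51 (SD, n = 14) in control and 2.61 ± 0.48 (SD, n = 13) in knockdown-labelled regions, a fall of 0.73 (95% interval −1.12 to −0.33; permutation adjusted p = 0.00526) that leaves a ratio of 0.604 of the control value. At hexokinase the ratio of Hk2 to Hk1 fell by 0.52 (permutation adjusted p = 0.00526), with all 13 knockdown-labelled regions below the control mean, although neither gene passed by itself. The ratio of Hk3 to Hk1 rose by 0.57 (permutation adjusted p = 0.0103), higher than the control mean in 12 of 13 regions. Among the kinases the ratio of Pdk1 to Pdk3 fell by 0.55 (permutation adjusted p = 0.00526) with all 13 regions below the control mean, and that of Pdk2 to Pdk3 differed by 0.05 (95% interval −0.07 to 0.17; permutation adjusted p = 0.438).

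The minor enolases gained on Eno1, by 0.43 for Eno2 (permutation adjusted p = 0.0102) and by 0.49 for Eno3 (permutation adjusted p = 0.00526). At phosphofructokinase Pfkp gained on Pfkl by 0.24 (permutation adjusted p = 0.0116) and Pfkm by 0.40 (permutation adjusted p = 0.0443). Slc16a3 lost on Slc16a1 by a difference of −0.35 (permutation adjusted p = 0.0443), so that the transporters fell unequally. The ratios Pfkm to Pfkl, Slc16a3 to Slc16a1 and Pklr to Pkm no longer passed without control regions 6 and 7 or after background subtraction, and of the 27 fits that left out 1 region they passed in 13, 12 and 10. Ratios of Aldoc to Aldoa, Pgam2 to Pgam1 and Pklr to Pkm also differed, by 0.30, 0.41 and 0.24, but their first gene lay within background, so they mostly carry the difference of the second, and Pgam1 and Pkm did not pass by themselves. The 3 ratios of Pfkfb1, Pfkfb3 and Pfkfb4 to Pfkfb2 did not pass (permutation adjusted p between 0.0543 and 0.761).

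**Figure D3:**
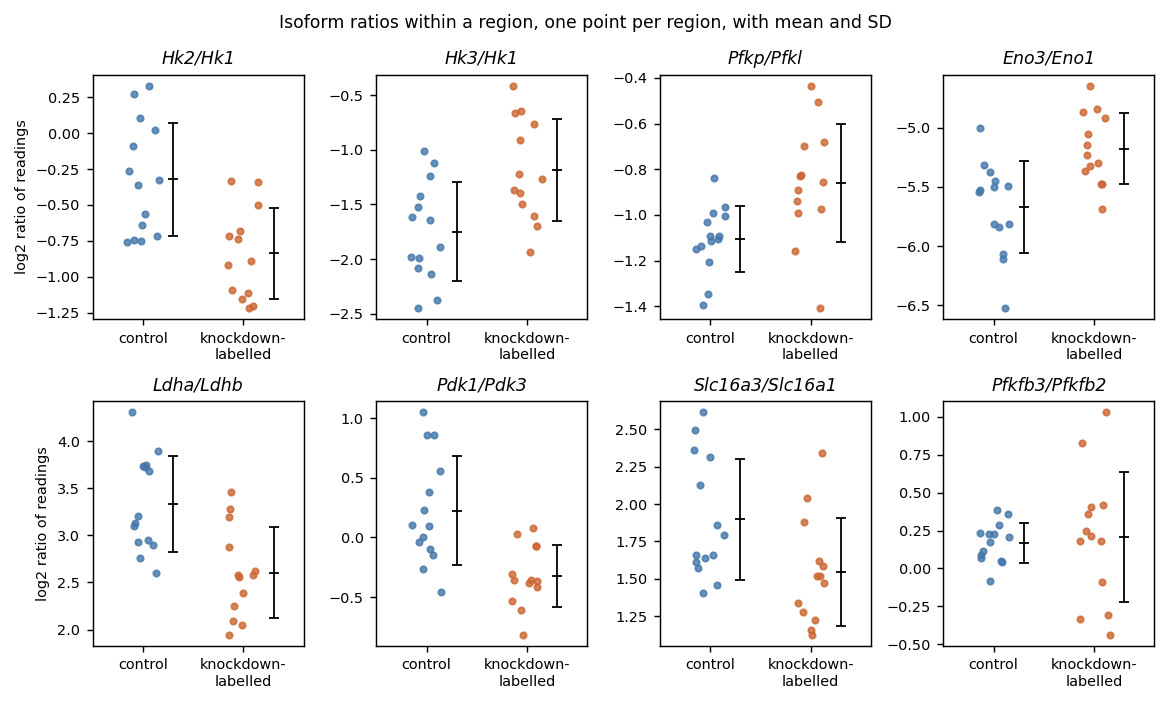
Each panel plots the log2 ratio of the readings of 2 isoforms in 1 region, for the 14 control (blue) and 13 knockdown-labelled (orange) regions, with the mean and SD in black beside the points. Hk2/Hk1, Ldha/Ldhb, Pdk1/Pdk3 and Slc16a3/Slc16a1 were lower and Hk3/Hk1, Pfkp/Pfkl and Eno3/Eno1 higher in the knockdown-labelled regions, while the ratio Pfkfb3/Pfkfb2 did not pass the test.

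The readings were uneven among the control regions, and in the same regions for gene after gene. Control regions 3, 6, 8 and 10 lay above every knockdown-labelled region in all 10 lower genes, and control regions 7 and 11 in 9 of them, the exception being Slc16a1. Control region 6 held the highest reading in 7 of the 10. Control regions 4, 5 and 13 lay above every knockdown-labelled region in none of the 10. On the other side knockdown-labelled region 8 lay below every control region in all 10 and knockdown-labelled region 1 in 9, while knockdown-labelled regions 4 and 12 did so in none. SDs among control regions ran from 0.28 to 0.59 (log2) in the 10 lower genes and from 0.19 to 0.37 among knockdown-labelled regions.

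The same control regions stood out in genes of the hypoxia response outside glycolysis. Of 19 such genes 8 were lower in the knockdown-labelled regions, Vegfa, Ankrd37, Kdm3a, P4ha1, Fam162a, Mxi1, Stc2 and Hilpda, and none was higher. Vegfa, the growth factor for blood vessels, fell by 0.85 (limma adjusted p = 0.0148). The mean of the list was above every knockdown-labelled region in control regions 3, 6, 7, 8, 10 and 11, with 10.77 (log2) in region 6 and 10.52 in region 7, against at most 9.43 in the knockdown-labelled regions. Over the 14 control regions, which share animals, sections and their scaling, the 10 lower genes correlated with that mean at 0.56 (Slc16a1) to 0.96 (Pfkl), and at 0.50 to 0.98 without control regions 6 and 7. Over the 13 knockdown-labelled regions the range was 0.14 to 0.85. The 22 genes that did not pass were divided in this respect, from −0.42 (Ldhb) to 0.97 (Gys1) among control regions. Pfkm stood at −0.22, Eno3 at −0.02 and Pfkfb4 at 0.02, whereas Pfkp stood at 0.95, Gpi1 at 0.93, Pkm, Pgam1 and Hk2 at 0.89, Hk1 at 0.80, Aldoc at 0.72 and Pdk4 at 0.67. Without control regions 6 and 7, Gpi1 stood at 0.91, Pkm at 0.89, Pgam1 at 0.86, Pfkp at 0.85 and Hk2 at 0.75. Hk1 then stood at 0.54, Aldoc at 0.56 and Pdk4 at −0.10, and Aldoc and Pdk4 were not above background. A high correlation was therefore not limited to the genes that were lower. That of Hk1, with a difference of 0.04, rested in part on those 2 regions.

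**Figure D4:**
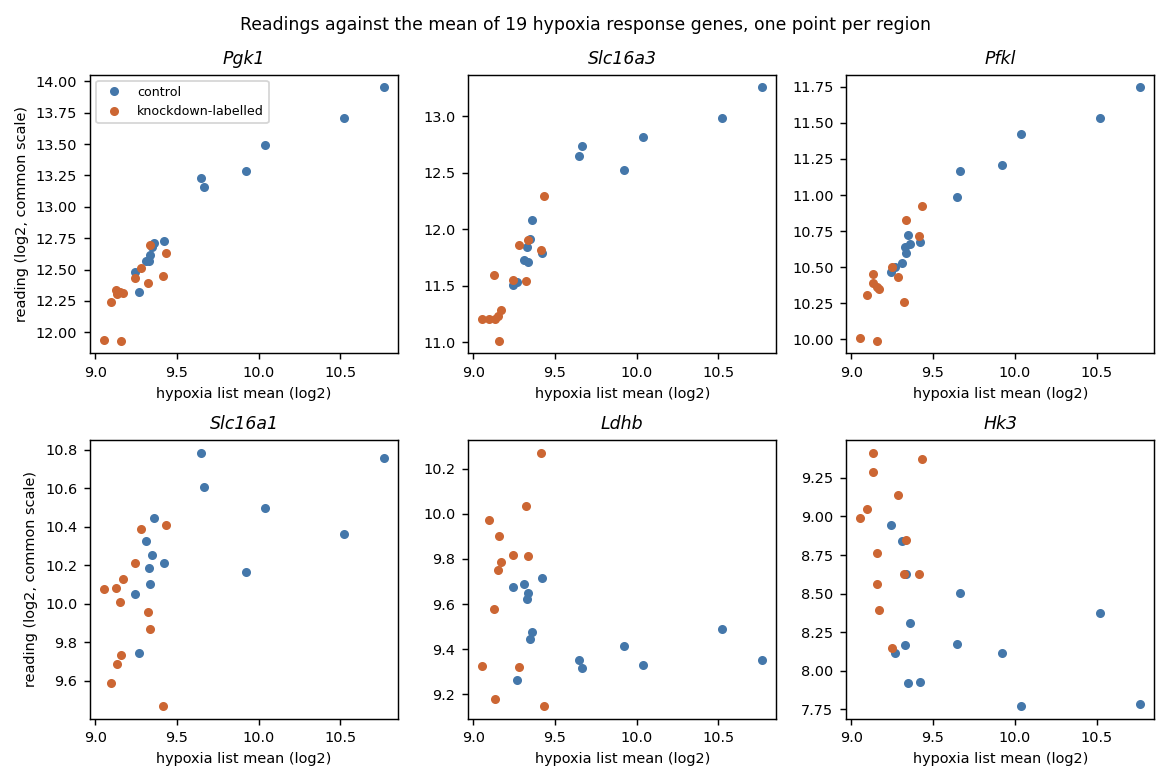
The horizontal axis gives the mean log2 reading of 19 hypoxia response genes and the vertical axis the log2 reading of 1 gene on the common scale, with 1 point per region (14 control in blue, 13 knockdown-labelled in orange). Pgk1, Slc16a3 and Pfkl rise along the axis, with 6 control regions beyond the highest knockdown-labelled value of 9.43, while Slc16a1 does so loosely and Ldhb and Hk3 do not.

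With the hepatocyte list in the fit 10 genes were again lower, Hk2 (−0.65, limma adjusted p = 0.0405) taking the place of Tpi1 (−0.40, limma adjusted p = 0.0698). Of all targets 2.61% were lower in that fit. With the mean of the hypoxia list in the fit, none of the 34 genes and none of the 19615 targets passed (limma). By unadjusted p 5 of the 34 were lower and 3 higher, and the differences shrank to between −0.10 (Tpi1) and −0.24 (Pdk1) for the 10 genes. With relative depth in the fit again 0 of the 34 passed, and of all targets only 0.0204% were called lower and 0.117% higher. By unadjusted p 15 of the 34 were lower and 2 higher, and the differences of the 10 genes ran from −0.19 (Slc16a1) to −0.66 (Pdk1). No share of all targets by unadjusted p was counted for this fit or the hypoxia fit to set beside these counts. The hypoxia list and depth were each lower on average in the knockdown-labelled regions, so neither can be told apart from the label here. Within control the 2 did not run together. Control regions 6 and 7, with the highest hypoxia means, had 25209342 and 12053450 steps. Control region 9 had a hypoxia mean of 9.36 (log2) at 20674657 steps. Without control regions 6 and 7, 5 of the 10 were still lower (Aldoa, Pgk1, Eno1, Ldha and Pdk1), with falls of 0.40, 0.47, 0.42, 0.43 and 0.51. This stood beside 0.831% of all targets. Leaving out control region 3, control region 6 or knockdown-labelled region 8 alone also took the count from 10 to 5. Of all targets 1.11%, 1.19% and 1.04% were then lower. Of the 27 fits that left out 1 region, Aldoa, Pgk1, Eno1, Ldha, Pdk1 and Hk3 passed in all 27, Tpi1 in 24, Gapdh in 22, Pfkl and Pygl in 18, Slc16a3 in 17 and Slc16a1 in 6.

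The scaling of the regions also decided how many genes passed. On the values as deposited 33 of the 34 were lower, with 98.0% of all targets. With the same upper quartile or the same total in every region 5 were lower, beside 1.09% and 0.744% of all targets, with TMM scaling 8, beside 1.08%, and with quantile normalisation 6, beside 2.68%. Scaled by 23 housekeeping genes, none was lower, beside 0.50% of all targets, and the limma adjusted p of Eno1 was 0.0563. By unadjusted p 15 were lower, a count that has no share of all targets beside it. Gapdh, Pgk1, Eno1, Ldha and Pdk1 passed under each of these scalings but the housekeeping one. Under the upper quartile, total, TMM and quantile scales the falls of Pgk1, Eno1, Ldha and Pdk1 stayed between 0.35 (Eno1, quantile) and 0.59 (Pdk1, TMM). Gapdh fell by 0.35 under the upper quartile scale. The share of higher genes among all called targets moved from 33.6% to between 47.6% and 63.8% under the upper quartile, total, TMM, quantile, housekeeping and background-subtracted scales.

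**Figure D5:**
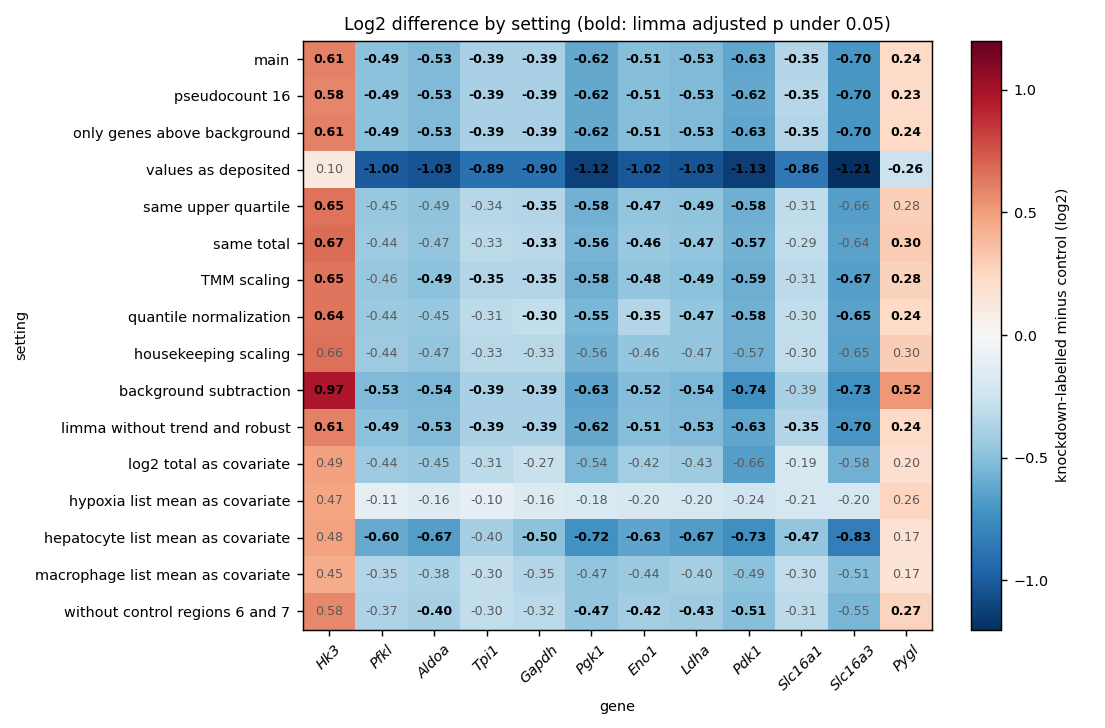
Rows are the main setting and 15 alternatives, columns the 12 genes that passed, and each cell gives the log2 difference between knockdown-labelled and control regions, in bold where the limma adjusted p was under 0.05. The 10 lower genes stayed below 0 in every row, smallest with the hypoxia list as covariate, and Pygl turned to −0.26 on the values as deposited.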

How the data were processed

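Regions of MC38 liver metastases were read with GeoMx mouse whole transcriptome probes. The authors aligned and counted probe tags and normalized them with the GeoMx analysis suite (version not given in the sources used here), and the deposited values are a signal per target whose label groups had been set to separate upper quartiles. Here each region was multiplied so that its median over all 19615 targets was the same, and log2(value + 1) was taken, so fold changes are on that scale and understate those of low genes. No filter on low values was applied. Labels were compared with limma 3.58.1 in R 4.3.3 (trend and robust variance, no covariate, Benjamini-Hochberg over all targets), and isoform ratios with a permutation test of 100000 resamples (scipy 1.17.1, numpy 2.4.6, pandas 2.3.3). Both were tested on simulated data. Alternatives were other scalings (TMM was written for this purpose), pseudocount 16, background subtraction, covariates and regions left out. Regions are numbered 1 to 14 and 1 to 13 within each group in label order, and the label number 12 does not occur. The 34 genes, the gene lists and the ratios were chosen with earlier results of these data known. By the rule for named genes, every one of the 34 is described, with group ranges for those that passed and most of their isoforms, beside Cmtm6 and Slc2a1, and genes of other lists are named where they passed or had the smallest p. Genes outside that rule (Krt8, Clec4f, Bsg, Mpc1, Mpc2, Phgdh, Hif1a) were named after their values were seen. Whether a region's replicates are technical cannot be told, since no label ties regions to mice, so p-values measure only the spread between regions. The precision of a reading is limited by the relative depth given in the report. Some genes of the other lists are not reported here.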

Additional observations from a re-analysis of the deposited data

How the results depend on the processing

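Against 10 lower genes in the report, the count was 33 on the values as deposited, 5 under upper quartile scaling, 5 under total scaling, 6 under quantile normalization, 5 without control regions 6 and 7, and 0 with housekeeping scaling, the log2 total, the hypoxia list or the macrophage list as covariate, the last chosen after seeing the data. Against 2 higher genes it was 1 under upper quartile scaling (Hk3), without control regions 6 and 7 (Pygl) and with the hepatocyte list as covariate (Ldhb, neither Hk3 nor Pygl), and 0 on the values as deposited, with housekeeping scaling and with the log2 total, hypoxia or macrophage covariate. Where 0 were lower, 15, 15, 5 and 14 of the 34 were lower by unadjusted p, in that order (limma), and where 0 were higher, 0, 3, 2, 3 and 2 were higher. No share of all targets by unadjusted p was counted beside these. With the macrophage list 0.051% of all targets were called lower and 0.0867% higher by adjusted p. The other settings gave 8 to 12 lower genes and, where not named above, 2 higher. Leaving out 1 region at a time gave 5 to 15 lower genes, 1 to 2 higher genes and 8 to 14 ratios. Leaving out control region 3, control region 6 or knockdown-labelled region 8 gave 5 lower genes. Knockdown-labelled region 11 gave 6, beside 1.71% of all targets, and control region 13 gave 15, beside 5.65%. The ratios were run in 5 other settings, and the number that differed stayed between 8 and 12. These were the larger pseudocount, background subtraction, only genes above background, the values as deposited and leaving out control regions 6 and 7. Ratios with a gene within background were not tested where only genes above background were kept. The ratios were not fitted with a covariate, so their number under the hypoxia, macrophage, hepatocyte or log2 total covariate is not known. Pygl reversed on the values as deposited (−0.26) and the ratio of Aldoc to Aldoa after background subtraction (−0.10, permutation adjusted p = 0.859), where Aldoc sits within background. Beyond the construction of each setting the cause was not tested. No paired analysis was possible because region numbers do not recur between the groups and tie no region to a mouse. The count model planned as an alternative was not run, because the deposited signal could not be shown to hold whole reads. None of the 5 genes not above background passed, and a difference in them is hard to tell from background signal. Being within background did not by itself prevent a call, since Fabp1 and Rbp4 of the hepatocyte list passed there. Whether depth limited the 5 genes was not tested.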

Other observations

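Neighbouring routes of glucose use were read in the same regions. Of the 6 glucose transporters none passed and 2 were above background. Slc2a1, which encodes Glut1, read 507.1 to 2524 in control (median 649.6) and 436.2 to 972.4 in knockdown-labelled regions (median 572.5), a difference of −0.45 ± 0.21 (log2, SE; limma adjusted p = 0.224). Serine synthesis leaves glycolysis at phosphoglycerate, and of 5 genes that make serine or convert it onward 3 were lower. Psat1 and Psph, which make serine, fell by 0.32 and 0.41 (limma adjusted p = 0.0374 and 0.0306). Shmt2, which uses serine, fell by 0.44 (limma adjusted p = 0.0150). Phgdh, the entry enzyme of serine synthesis, differed by −0.06 (limma adjusted p = 0.561). None of the 7 genes of the pentose phosphate pathway passed, and all 7 differences were below 0, the smallest p being those of G6pdx (−0.18, limma adjusted p = 0.141) and Pgd (−0.17, limma adjusted p = 0.323), its oxidative dehydrogenases.

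Among genes of gluconeogenesis the mitochondrial carboxykinase Pck2 was lower by a difference of −0.36 (limma adjusted p = 0.0301). Among 12 regulators of glycolysis genes Egln2, a prolyl hydroxylase of the hypoxia-inducible factors, was the one that passed, with a fall of 0.29 (limma adjusted p = 0.00658), and Hif1a differed by 0.06 (limma adjusted p = 0.615). These lists were chosen with earlier results known, and regions of 1 mouse make each p too small. In the marker lists of other cell types, Cd3d, Cd3e, Trac, Lck, Nkg7 and Prf1 of T or NK cells, Thy1 of fibroblasts and Alb, Apoa1, Apoa2, Apoh, Serpina3k, Ttr, Cyp2e1, Fabp1 and Rbp4 of hepatocytes were higher in the knockdown-labelled regions. Tnnt2 of muscle was lower, although none of the 10 muscle markers was above background, and no neutrophil (12), endothelial (10) or epithelial (11) marker passed.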
